A study of Rattus norvegicus with 12 samples.

Results

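The histocompatibility genes of the rat, which carry the prefix RT1, and the genes that process and load their peptides were measured at embryonic day 14 in the ganglionic eminences, the part of the fetal forebrain that forms the striatum. A gene was taken if its symbol began with RT1- or if it was 1 of 10 named presentation genes, and if a probe set was annotated to it alone. Where a gene had several such probe sets, the one with the highest mean was used. There were 44 such genes of 14506 genes on the array, 35 of them RT1 genes and 9 named presentation genes. The tenth, Nlrc5, was not analysed here. All 35 RT1 genes lie on rat chromosome 20.

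The study compared 6 embryos homozygous for BACHD (BACHD+/+), a transgene holding the whole human huntingtin gene with 96 CAG repeats, with 6 wild type embryos of matching age. CAG expansions in huntingtin cause Huntington's disease, and the stated purpose was to find early changes of transcription. All embryos came from 3 time-bred transgenic dams, which had been sedated with ketamine and xylazine, and each array holds the medial and lateral eminences of 1 embryo, freed of meninges. The dam and the sex of each embryo are not given in the labels, so litter and sex cannot be told apart from the spread between embryos. Values are log2 intensities of Affymetrix Rat Gene 1.0 ST arrays, and each difference is given as homozygous minus wild type. All 7 measured markers of the eminence were brighter than the range of dim probe sets described below, with Dlx1 at 11.87 ± 0.0388 in homozygous and 11.84 ± 0.0346 in wild type eminences (SD, n = 6 each). None of them passed the test. Nkx2-1, a factor of the medial eminence, differed by 0.16 ± 0.0403 (limma adjusted p = 0.108). Its groups did not overlap, as in 1.86% of all probe sets. Dlx5 differed by -0.18 ± 0.0804 (limma adjusted p = 0.321).

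Class I molecules are a heavy chain held by beta-2 microglobulin, and they carry peptides from inside the cell to its surface. The peptides are cut by the proteasome, pumped into the endoplasmic reticulum by the transporter Tap1 and Tap2, and loaded there with the help of tapasin, calreticulin, calnexin and Pdia3. Class II molecules pair an alpha and a beta chain, are escorted by the invariant chain Cd74, and receive their peptides in endosomes from DM under the control of DO. In the brain, class II is known mainly from microglia and other immune cells, while class I is also found in neurons, where it has been tied to synapse development.

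Promoters of both classes hold known control elements, and 5 promoters of members that the results turn on or that show each element are given here. RefSeq promoters on the assembly GRCr8, from 250 bases before to 50 bases after the start of each gene, were on hand for 38 of the 44 members. Of the 5 shown, those of RT1-Ha (chr20:4772092-4772391, minus strand), RT1-DOa (chr20:4758374-4758673, minus strand) and RT1-Da (chr20:4515165-4515464, plus strand) belong to the 3 class II genes with the smallest p. That of RT1-CE16 (chr20:3265394-3265693, minus strand) stands for the class I genes and that of B2m (chr3:129549080-129549379, plus strand) for the processing genes. Capitals mark the Y box CTGATTGG, on either strand, in the first 4 sequences, the kB site GGGGATTCC also in RT1-CE16, and the interferon response core GAAANNGAAA in B2m.
RT1-Ha: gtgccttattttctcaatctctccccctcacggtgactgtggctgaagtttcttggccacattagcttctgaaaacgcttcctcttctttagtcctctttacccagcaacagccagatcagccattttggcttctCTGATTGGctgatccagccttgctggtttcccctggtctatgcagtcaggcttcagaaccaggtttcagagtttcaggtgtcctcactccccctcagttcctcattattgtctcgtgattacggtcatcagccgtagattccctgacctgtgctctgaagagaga
RT1-DOa: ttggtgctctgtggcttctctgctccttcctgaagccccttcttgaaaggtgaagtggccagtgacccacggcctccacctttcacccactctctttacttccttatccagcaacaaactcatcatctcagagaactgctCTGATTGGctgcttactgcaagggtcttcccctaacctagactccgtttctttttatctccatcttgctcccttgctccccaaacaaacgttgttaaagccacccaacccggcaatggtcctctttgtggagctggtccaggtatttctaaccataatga
RT1-Da: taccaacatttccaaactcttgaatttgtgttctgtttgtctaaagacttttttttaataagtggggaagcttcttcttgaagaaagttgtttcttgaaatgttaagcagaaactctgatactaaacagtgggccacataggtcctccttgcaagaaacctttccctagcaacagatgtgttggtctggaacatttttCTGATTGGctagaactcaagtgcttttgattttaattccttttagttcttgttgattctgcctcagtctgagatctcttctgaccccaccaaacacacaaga
RT1-CE16: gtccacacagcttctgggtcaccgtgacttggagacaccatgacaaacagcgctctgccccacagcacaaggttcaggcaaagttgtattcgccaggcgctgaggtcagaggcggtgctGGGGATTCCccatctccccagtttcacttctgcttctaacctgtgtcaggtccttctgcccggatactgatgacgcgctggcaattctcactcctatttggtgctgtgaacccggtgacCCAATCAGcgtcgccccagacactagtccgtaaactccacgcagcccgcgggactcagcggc
B2m: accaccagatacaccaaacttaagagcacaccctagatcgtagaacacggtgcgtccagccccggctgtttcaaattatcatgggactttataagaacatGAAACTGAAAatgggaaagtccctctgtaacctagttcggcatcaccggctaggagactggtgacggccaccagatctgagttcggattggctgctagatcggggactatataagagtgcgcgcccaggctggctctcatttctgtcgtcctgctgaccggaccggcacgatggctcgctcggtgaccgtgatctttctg

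The Y box, the recognition sequence of the factor NF-Y, was found by letters on both strands in 3.5% of all 33469 RefSeq promoters and in 15 of the 38 member promoters. It stood in 6 of 8 class II promoters, always in the reading direction of the gene, and began 46 to 115 bases before the start. In the class I promoters that held it, 8 in all, it lay on the opposite strand. The kB site, a sequence bound by factors of the NF-kB family, stood in 0.281% of all promoters and in 6 of 9 promoters of the class I CE genes, and in none of the other member promoters searched. The interferon response core, which interferon regulatory factors can bind, stood in 3.92% of all promoters and in 7 of the 38, namely B2m, Tap1, Tap2, Tapbp, RT1-N3, RT1-S2 and RT1-S3. None of the matches in the 5 sequences overlapped another. A match of letters is a description and not a site in use.

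None of the 44 genes passed the test between homozygous and wild type eminences. The smallest adjusted p was 0.134, for RT1-Ha (limma, Benjamini-Hochberg over all 29214 probe sets at 0.05), where 124 probe sets passed, or 0.424% of those tested. At an unadjusted p under 0.05, 4 of the 44 were higher (9.09%), against 10.2% of all probe sets, and 1 was lower (2.27%), against 4.81% of all probe sets. In no member did the groups stand apart without overlap, which 1.86% of all probe sets did. The fitted folds ran from 0.919 to 1.15, and the 95% confidence intervals of all 44 lay between -0.30 and 0.37 on the log2 scale.

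**Figure D1:**
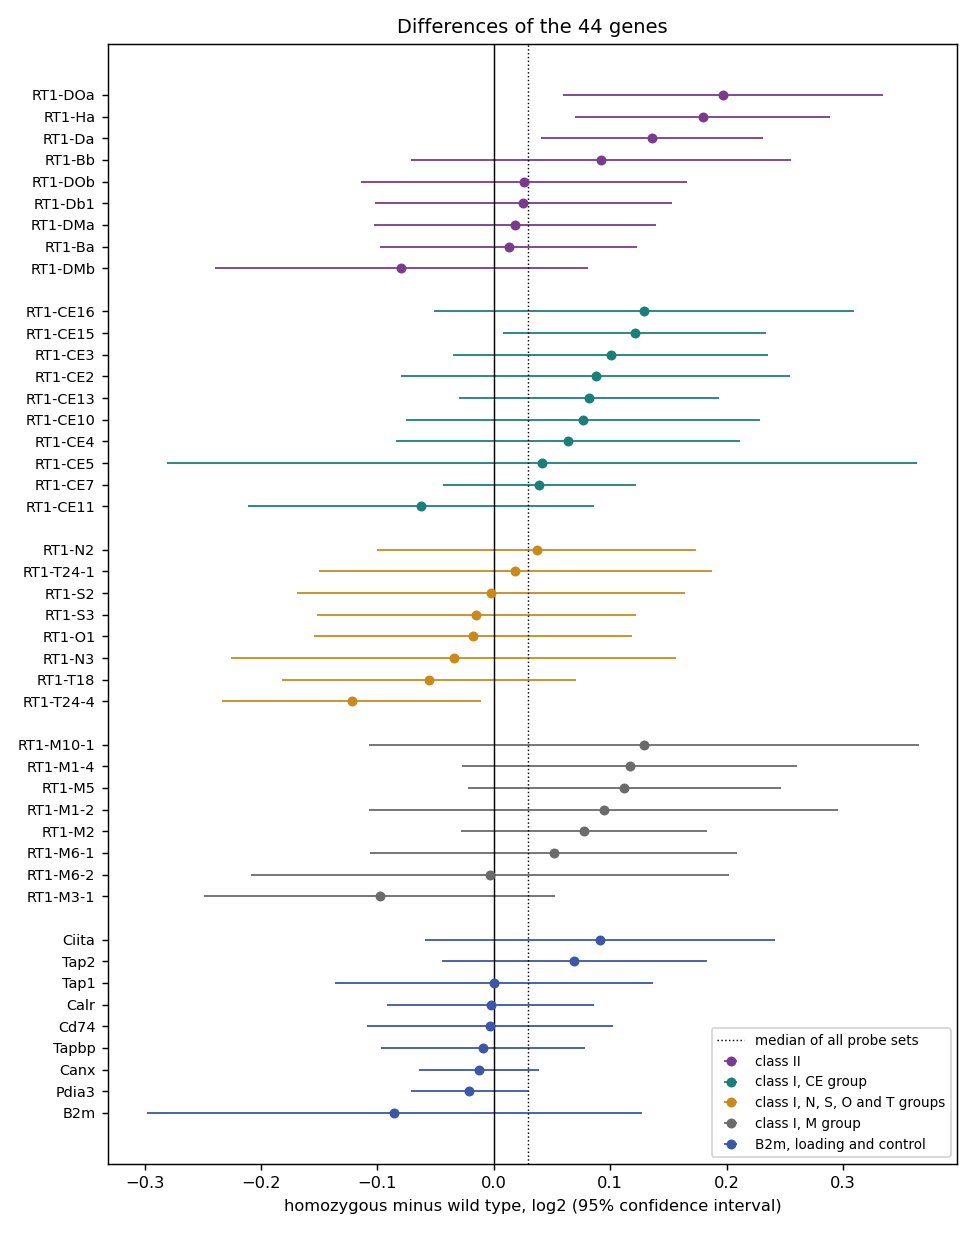
Difference of each of the 44 genes, homozygous minus wild type in log2 units, with the 95% confidence interval of the limma fit and the genes grouped by role. The largest differences are 0.20 for RT1-DOa and 0.18 for RT1-Ha, and most intervals cross 0.

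The differences leaned to the positive side, with 28 of the 44 higher (63.6%), against 64.8% of all probe sets. Their median was 0.03, which is also the median of all probe sets on these arrays. Olfactory receptor genes, 1105 genes that brain tissue mostly does not use, had a median of 0.03 as well, with 721 of them higher and 384 lower. The lean depends on the scale. After centring each array on its median 21 of the 44 were higher, and after quantile normalization or cyclic loess 20 were, with medians of -0.00637, -0.00485 and -0.00898.

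Brightness depends on the probes as well as on the transcript, so levels of different genes are not ranked here, and no detection call was given with the values. As a guide only, the olfactory receptor genes served as a scale of dim probe sets, of which the 95th percentile was 6.65. The mean of 17 of the 44 genes lay at or below it, among them 7 of the 8 class I M genes, 4 of the 9 class II genes, 3 of the 10 class I CE genes and 2 of the 9 presentation genes, Cd74 and Ciita. The presentation genes B2m, Calr, Canx and Pdia3 and the class II gene RT1-DMa were brighter than every olfactory receptor gene. RT1 genes are close copies of each other, and probes may read more than the annotated gene, so the split between RT1 genes is uncertain. In RefSeq 10 of 44 RT1 protein-coding genes have no probe set of their own here, and 4 probe sets are annotated to several RT1 genes together.

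**Figure D2:**
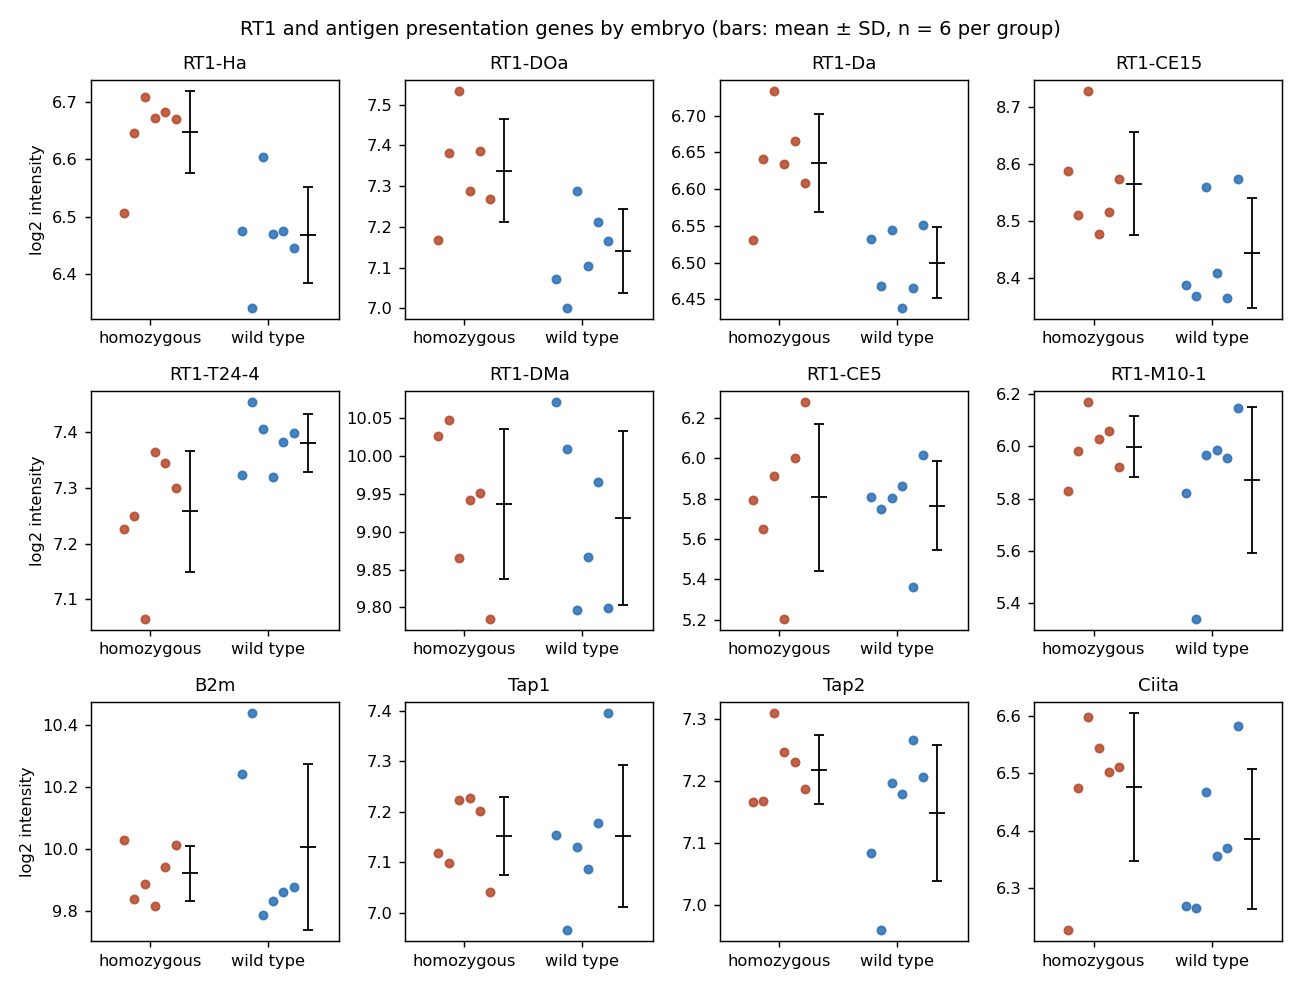
Log2 intensity of named members in each of the 6 homozygous and 6 wild type embryos, with bars for the mean ± SD of each group. The groups overlap in every gene, and 5 of 6 homozygous embryos lie above all wild type embryos in RT1-Ha and RT1-Da.

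Of the 9 class II genes, 8 were higher and 1 lower in homozygous eminences, with a median of 0.03 and none past the test. Of all probe sets, 64.8% were higher. The class II genes with the smallest p were RT1-Ha, RT1-DOa and RT1-Da. RT1-Ha is the rat counterpart of the alpha chain of human DP. It stood at 6.51, 6.65, 6.71, 6.67, 6.68 and 6.67 in homozygous embryos 1 to 6, against 6.48, 6.34, 6.60, 6.47, 6.47 and 6.45 in wild type embryos 1 to 6. Homozygous embryo 1 lay among the wild type embryos, and the other 5 lay above all of them. The means were 6.65 ± 0.0718 and 6.47 ± 0.0838 (SD, n = 6 each), a difference of 0.18 ± 0.0511 (SE) or 1.13-fold, with an adjusted p of 0.134 in limma. Its means lie within the range of the olfactory receptor genes.

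RT1-DOa encodes the alpha chain of DO, which holds back the peptide loader DM. Its values were 7.17, 7.38, 7.53, 7.29, 7.39 and 7.27 in homozygous embryos, against 7.07, 7.001, 7.29, 7.10, 7.21 and 7.17 in wild type embryos. The groups overlapped, with 3 homozygous embryos above all wild type embryos. The means were 7.34 ± 0.126 and 7.14 ± 0.103, and the difference was 0.20 ± 0.0643 (limma adjusted p = 0.184). Its partner chain RT1-DOb differed by 0.03 ± 0.0653.

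RT1-Da is the alpha chain of the rat DR type molecule. In homozygous embryos it stood at 6.53, 6.64, 6.73, 6.63, 6.67 and 6.61, against 6.53, 6.47, 6.54, 6.44, 6.47 and 6.55 in wild type embryos. As in RT1-Ha, homozygous embryo 1 was the lowest of its group and the other 5 lay above all wild type embryos. The means of RT1-Da also lie within the range of the olfactory receptor genes. The share of all probe sets with 5 homozygous embryos above all wild type embryos was not computed. The median over all probe sets of an array divided the embryos in the same way. It was 7.69 in homozygous embryo 1, 7.709 to 7.755 in the other 5 and 7.673 to 7.705 in wild type embryos. The part of this array-wide difference in the values of RT1-Ha and RT1-Da was not tested. The planned settings that tested both genes include median centring, quantile normalization and cyclic loess. Over these settings the difference ranged from 0.118 to 0.208 for RT1-Ha and from 0.0727 to 0.157 for RT1-Da. With all arrays as given, RT1-Da differed by 0.14 ± 0.0445, with an adjusted p of 0.185 in limma. RT1-Db1, the beta chain of the same molecule, differed by 0.03 ± 0.0594, and the DQ type chains RT1-Ba and RT1-Bb by 0.01 ± 0.0515 and 0.09 ± 0.0762.

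DM, the loader of class II molecules, is made of RT1-DMa and RT1-DMb. RT1-DMa was bright in all embryos, at 10.03, 10.05, 9.87, 9.94, 9.95 and 9.78 in homozygous and at 10.07, 10.01, 9.80, 9.87, 9.97 and 9.80 in wild type embryos. The groups covered nearly the same range, and the difference was 0.02 ± 0.0565, with a 95% confidence interval of -0.10 to 0.14. RT1-DMb was the 1 class II gene with a lower mean, by -0.08 ± 0.0746.

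Cd74, the invariant chain that escorts class II molecules, had 6.29, 6.46, 6.54, 6.43, 6.40 and 6.42 in homozygous embryos, against 6.41, 6.40, 6.41, 6.34, 6.50 and 6.49 in wild type embryos. The groups overlapped fully, with a difference of -0.0035 ± 0.0493. Ciita, the coactivator that switches class II genes on, had 6.23, 6.48, 6.60, 6.54, 6.50 and 6.51 in homozygous embryos and 6.27, 6.27, 6.47, 6.36, 6.37 and 6.58 in wild type embryos. Its difference was 0.09 ± 0.0703 (limma adjusted p = 0.548), and homozygous embryo 1 was the lowest of all 12. Both genes lay within the range of the olfactory receptor genes. The summed linear intensity of 7 markers of lymphocytes and dendritic cells, 4 of them in that range, was 707.5 to 788.8 in homozygous and 706.7 to 783.4 in wild type embryos.

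The class I CE genes are class I genes of the rat CE region. Of the 10 measured, 9 were higher and 1 lower, with a median of 0.08, while 64.8% of all probe sets were higher. RT1-CE15 alone, 1 of the 10, was higher at an unadjusted p under 0.05, against 10.2% of all probe sets. RT1-CE15 stood at 8.59, 8.51, 8.73, 8.48, 8.52 and 8.57 in homozygous embryos, against 8.39, 8.37, 8.56, 8.41, 8.37 and 8.57 in wild type embryos. Homozygous embryo 3 and wild type embryos 3 and 6 were the highest of their groups, and 2 homozygous embryos lay above all wild type embryos. The difference was 0.12 ± 0.0526 (limma adjusted p = 0.30).

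RT1-CE13 had 8.04, 8.09, 8.22, 8.12, 8.14 and 8.08 in homozygous embryos, against 7.93, 7.92, 8.03, 8.03, 8.06 and 8.23 in wild type embryos. Wild type embryo 6 was the highest of all 12, and the difference was 0.08 ± 0.0523. RT1-CE7 had 8.003, 8.12, 8.10, 8.09, 8.11 and 8.19 in homozygous embryos and 8.07, 8.03, 8.08, 8.03, 8.14 and 8.02 in wild type embryos, a difference of 0.04 ± 0.0387. A second probe set of RT1-CE7 gave 0.06 ± 0.0807. RT1-CE16, whose promoter is shown above, averaged 6.98 ± 0.162 in homozygous and 6.85 ± 0.158 in wild type eminences, a difference of 0.13 ± 0.0842.

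RT1-CE5 was the least even of the RT1 genes, and its residual SD lay at percentile 97.4 of all probe sets. Its mean of 5.79 lies within the range of the olfactory receptor genes. It stood at 5.79, 5.65, 5.91, 5.20, 6.002 and 6.28 in homozygous embryos and at 5.81, 5.75, 5.80, 5.86, 5.36 and 6.02 in wild type embryos. Both the lowest and the highest embryo were homozygous, and the difference of 0.04 ± 0.150 is small beside that spread. The other CE genes, among them RT1-CE2, RT1-CE4 and RT1-CE10, differed by between -0.06 ± 0.0693, for RT1-CE11, and 0.10 ± 0.0631, for RT1-CE3.

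The probe set annotated jointly to the classical class I genes RT1-A1, RT1-A2 and RT1-A3, which is no member because of its several genes, averaged 7.55 ± 0.0625 in homozygous and 7.53 ± 0.0484 in wild type eminences. Its difference was 0.02 ± 0.0410 (limma adjusted p = 0.858). The set shared by RT1-CE1 and RT1-CE12 differed by 0.13 ± 0.0646, with 4 homozygous embryos above all wild type embryos and an adjusted p of 0.364 in limma.

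Of the 8 nonclassical class I genes of the N, S, O and T groups, 2 were higher and 6 lower, with a median of -0.02. Of all probe sets, 64.8% were higher. All of these genes but RT1-T24-4 differed by less than their SE. RT1-T24-4, a class I gene of the T group, was the 1 member lower at an unadjusted p under 0.05. It stood at 7.23, 7.25, 7.07, 7.36, 7.34 and 7.30 in homozygous embryos, against 7.32, 7.45, 7.41, 7.32, 7.38 and 7.40 in wild type embryos, so that 4 homozygous embryos lay below all wild type embryos. The difference was -0.12 ± 0.0519 (limma adjusted p = 0.293). The second probe set of RT1-T24-4 gave 0.12 ± 0.0884 in the opposite direction, so the array gives no single direction for this gene. RT1-S3, the counterpart of mouse Qa-1, a ligand of natural killer cell receptors, averaged 6.92 ± 0.0931 in homozygous and 6.94 ± 0.130 in wild type eminences, a difference of -0.01 ± 0.0640. The other 6 genes, RT1-N2, RT1-N3, RT1-O1, RT1-S2, RT1-T18 and RT1-T24-1, differed by between -0.06 for RT1-T18 and 0.04 for RT1-N2.

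The class I M genes lie at the far end of the RT1 complex, and in mouse some of them are known from sensory neurons of the vomeronasal organ. Of 8 measured, 6 were higher and 2 lower, with a median of 0.09 and none at an unadjusted p under 0.05. Of all probe sets, 64.8% were higher. All of the M genes but RT1-M5 had a mean within the range of the olfactory receptor genes. RT1-M3-1, whose mouse counterpart presents formylated peptides, averaged 6.56 ± 0.141 in homozygous and 6.66 ± 0.110 in wild type eminences, a difference of -0.10 ± 0.0704. RT1-M10-1 stood at 5.83, 5.98, 6.17, 6.03, 6.06 and 5.92 in homozygous embryos, against 5.82, 5.34, 5.97, 5.98, 5.96 and 6.15 in wild type embryos. Wild type embryo 2 was far below the rest, and the difference of 0.13 ± 0.110 became 0.02 without it. RT1-M6-2 had 6.04, 6.25, 6.01, 6.23, 6.23 and 6.08 in homozygous embryos and 6.04, 5.88, 6.29, 5.95, 6.17 and 6.52 in wild type embryos, with a difference of -0.0032 ± 0.0958. RT1-M1-2 had 6.40, 6.42, 6.87, 6.66, 6.51 and 6.48 in homozygous embryos and 6.48, 6.21, 6.69, 6.47, 6.61 and 6.31 in wild type embryos, and embryo 3 was the highest in each group. Its difference was 0.09 ± 0.0940. RT1-M1-4, RT1-M2, RT1-M5 and RT1-M6-1 differed by 0.12, 0.08, 0.11 and 0.05.

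**Figure D3:**
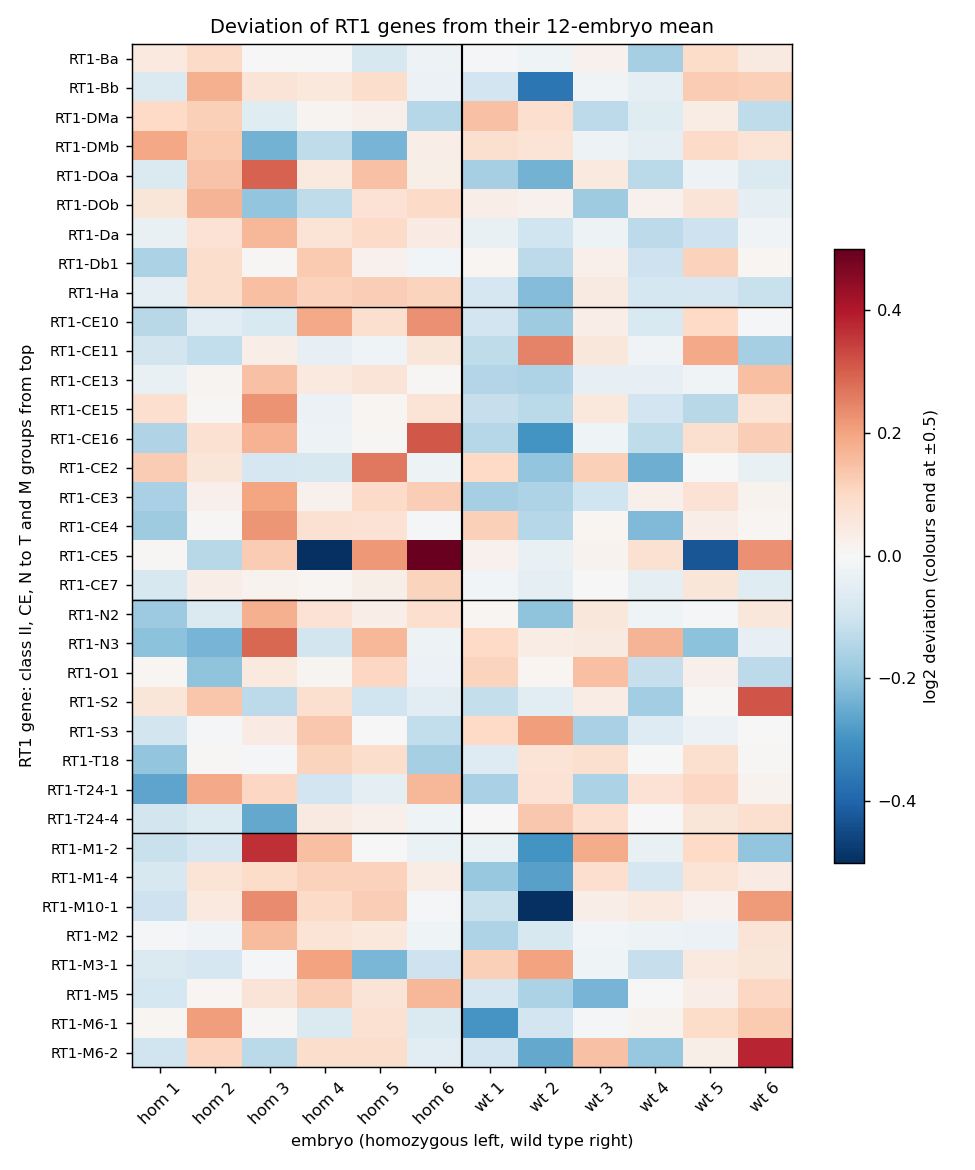
Deviation of each of the 35 RT1 genes from its own mean over the 12 embryos, in log2 units, with homozygous embryos left of wild type embryos. Homozygous embryo 1 and wild type embryos 1, 2 and 4 are mostly below the mean, with 10, 13, 11 and 9 of the 35 genes above it.

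B2m, the light chain shared by class I molecules, was the least even of the presentation genes, and its residual SD lay at percentile 92.3 of all probe sets. It stood at 10.03, 9.84, 9.89, 9.82, 9.94 and 10.01 in homozygous embryos, against 10.24, 10.44, 9.79, 9.83, 9.86 and 9.88 in wild type embryos. Wild type embryos 1 and 2 lay above all other embryos, while the remaining 4 wild type embryos lay within or just below the homozygous range. The means were 9.92 ± 0.0885 and 10.01 ± 0.268 (SD, n = 6 each), a difference of -0.09 ± 0.0993 (limma adjusted p = 0.694). Without wild type embryo 2 it was 0.00077, and without wild type embryos 1 and 2, a choice made after seeing the data, it was 0.08 (limma adjusted p = 0.42).

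Wild type embryos 1 and 2 also stood apart in the sums of some of the other gene lists, but not in most of them. The summed linear intensity of 8 endosomal genes of class II peptide handling was 8194 to 8652 in homozygous embryos. It was 9938 and 10100 in wild type embryos 1 and 2, against 7718 to 8279 in the other wild type embryos. In such sums the brightest genes weigh most, so a sum need not follow most genes of its list. The sum of 16 microglia and macrophage markers, 2 of them within the range of the olfactory receptor genes, was 2898 to 3356 in homozygous and 2997 to 3629 in wild type embryos, with 3629 and 3515 in wild type embryos 1 and 2. The sum of 11 endothelial markers was 4644 to 4863 in homozygous and 4445 to 5206 in wild type embryos, with 5056 and 5206 in the same pair. The 114 other genes of the RT1 region summed to 94400 to 96800 in homozygous embryos and to 99000 and 98070 in this pair. Gene by gene, both embryos of the pair lay above all others in 18 of the 114 and below all others in 17. The sums of mural and meningeal markers (2862 and 3291), lymphocyte and dendritic cell markers (730.0 and 706.7) and class I-like genes outside RT1 (692.2 and 696.5) in the pair were not both above those of the other embryos. Nor were those of the proteasome genes, the folding and trimming genes, the transcription factors, or the genes of interferon signalling and interferon-induced genes. The same holds for receptors and partners of class I, and for markers of the eminence and of erythroid cells. The part of these lists in the B2m values was not tested, and in whole tissue more cells of a type and more RNA per cell cannot be told apart. Within the lists the genes did not all go 1 way. Both embryos lay above all others in 6 of the 8 endosomal genes and below all others in 1, and above all others in 5 of the 16 microglia and macrophage markers and below in 2. In 9 proteasome genes, described below, they lay above all others in 4 and below in 2. The share over all probe sets was not computed, so whether these counts are particular to any list cannot be said. The following 4 genes were chosen after their values were seen. The endosomal protease gene Ctsb had 11.89 to 12.02 in homozygous embryos and 12.25 in both of these wild type embryos, while Ctsl, another endosomal protease gene, had 9.14 to 9.25 in homozygous embryos and 9.09 and 9.08 in this pair. Fcer1g, a receptor chain of myeloid cells, had 7.98 to 8.42 in homozygous embryos and 8.87 and 8.94 in the pair, while Mrc1, the macrophage mannose receptor, had 6.65 to 6.79 in homozygous embryos and 6.54 and 6.396 in the pair.

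**Figure D4:**
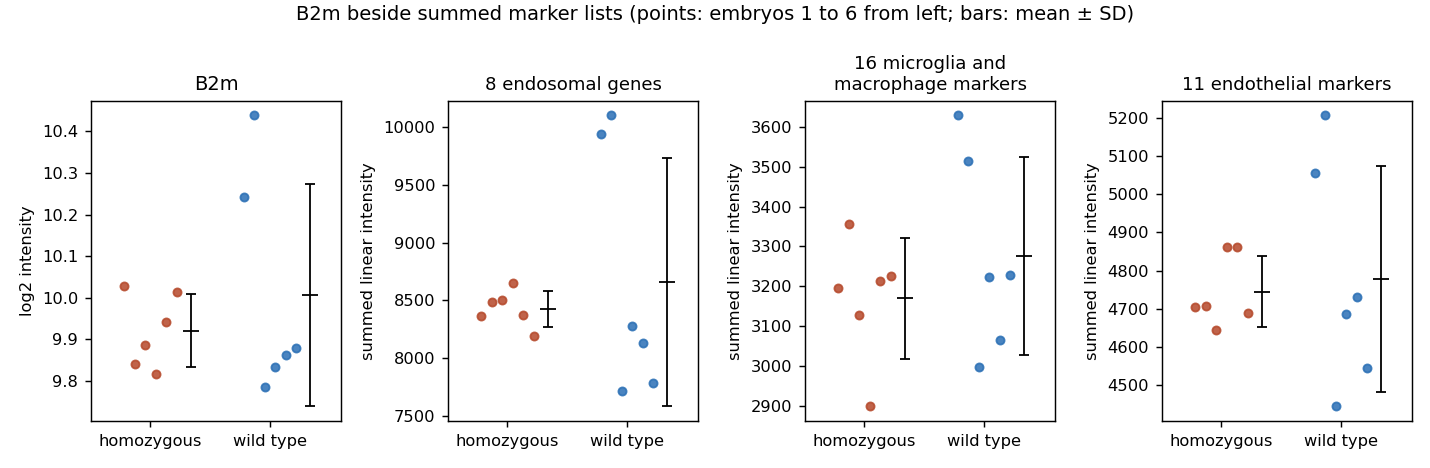
B2m log2 intensity in each embryo beside the summed linear intensity of marker and endosomal gene lists in the same embryo, with homozygous left of wild type embryos and bars for the mean ± SD. Wild type embryos 1 and 2 are highest in B2m and in the endosomal sum, at 9938 and 10100.

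The transporter and its partner tapasin differed little. Tap1 had 7.12, 7.10, 7.22, 7.23, 7.20 and 7.04 in homozygous embryos and 7.15, 6.97, 7.13, 7.09, 7.18 and 7.40 in wild type embryos, and both means were 7.15, with a standard error of the difference of 0.0639. Tap2 had 7.17, 7.17, 7.31, 7.25, 7.23 and 7.19 in homozygous embryos and 7.08, 6.96, 7.20, 7.18, 7.27 and 7.21 in wild type embryos, a difference of 0.07 ± 0.0531 (limma adjusted p = 0.547). Wild type embryo 6 was the highest in Tap1 and wild type embryo 2 the lowest in both. Tapbp, the gene of tapasin, had 7.87, 8.04, 8.09, 8.01, 8.05 and 8.01 in homozygous embryos and 7.99, 8.01, 7.97, 8.04, 8.06 and 8.05 in wild type embryos. The ranges overlapped, and its difference was -0.0091 ± 0.0409.

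Calr, Canx and Pdia3 fold glycoproteins of every kind besides class I chains. Calr had 12.55, 12.60, 12.45, 12.46, 12.51 and 12.47 in homozygous embryos and 12.52, 12.47, 12.42, 12.62, 12.62 and 12.40 in wild type embryos, a difference of -0.0027 ± 0.0414. Canx had 12.55, 12.50, 12.52, 12.55, 12.54 and 12.54 in homozygous embryos and 12.48, 12.52, 12.53, 12.57, 12.63 and 12.54 in wild type embryos, with a 95% confidence interval of the difference of -0.06 to 0.04. These are among the tightest values of the set. Pdia3 had 12.87, 12.88, 12.88, 12.88, 12.86 and 12.88 in homozygous embryos and 12.89, 12.86, 12.84, 12.90, 13.00 and 12.89 in wild type embryos. Wild type embryo 5 was the highest of all 12 in Canx and in Pdia3, and Pdia3 differed by -0.02 ± 0.0235.

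The level of the 35 RT1 genes as a group varied between embryos of the same genotype. The median deviation of the RT1 genes from their own means was -0.08, 0.03, 0.06, 0.05, 0.06 and -0.0089 in homozygous embryos 1 to 6, against -0.07, -0.10, 0.02, -0.05, 0.04 and 0.02 in wild type embryos 1 to 6. The number of RT1 genes above their mean was 10, 24, 24, 24, 28 and 17 of 35 in homozygous and 13, 11, 20, 9, 24 and 22 of 35 in wild type embryos. Homozygous embryo 1 stood with wild type embryos 1, 2 and 4, and the 2 groups overlapped. The median deviation of the olfactory receptor genes was -0.08, 0.01, 0.06, 0.02, 0.05 and 0.02 in homozygous and -0.07, -0.04, 0.01, -0.02, -0.0083 and 0.05 in wild type embryos, and it was lowest in embryo 1 of each group. The part of this array-wide shift of dim probe sets in the RT1 values was not tested.

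**Figure D5:**
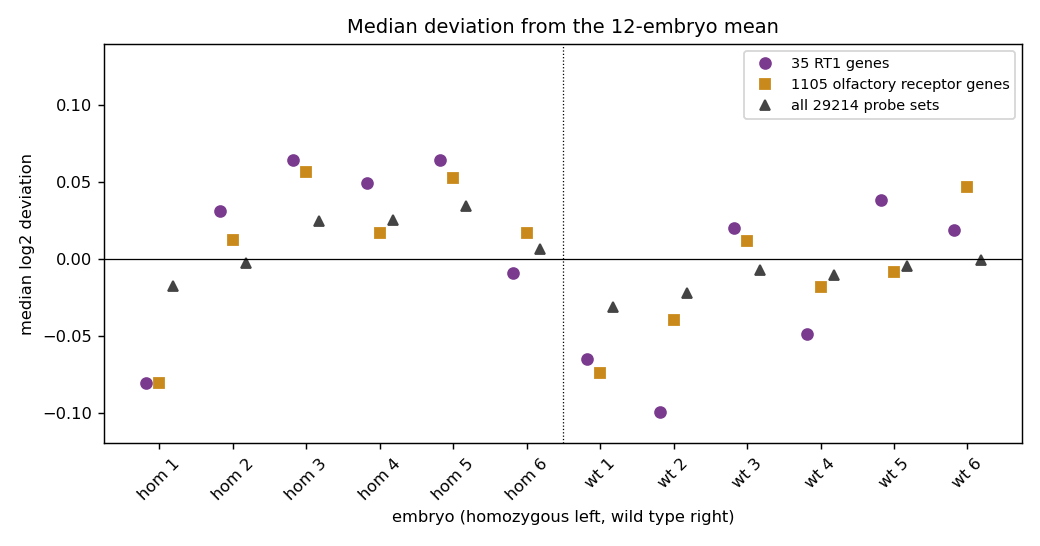
Median deviation from the mean over all embryos, in log2 units, of the 35 RT1 genes, the 1105 olfactory receptor genes and all probe sets, for each homozygous and wild type embryo. Homozygous embryo 1 and wild type embryo 1 are low in RT1 and olfactory receptor genes, at -0.08 and -0.07 for RT1.

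The RFX complex and its partners bind the promoters of class II and class I genes, next to the Y box. Of 12 transcription factors of histocompatibility genes measured, none passed the test over all probe sets, and Rfxank and Rfx5 were higher at an unadjusted p under 0.05 (16.7% of 12, against 10.2% of all probe sets). Rfxank, the ankyrin subunit of RFX, had 9.58, 9.72, 9.65, 9.65, 9.70 and 9.55 in homozygous embryos, against 9.52, 9.52, 9.46, 9.35, 9.42 and 9.32 in wild type embryos. Every homozygous embryo lay above every wild type embryo, as in 1.86% of all probe sets without overlap, and the difference was 0.21 ± 0.0437 with an adjusted p of 0.0523 in limma. It passed the threshold in 4 of 20 other settings, with adjusted p between 0.0114 and 0.126, and in none of the 12 fits that left out 1 embryo. Without wild type embryos 1 and 2, a choice made after seeing the data, the adjusted p was 0.0119 in limma.

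Rfx5, the DNA-binding subunit of the same complex, had 9.13, 9.08, 9.03, 9.04, 9.10 and 9.002 in homozygous embryos, against 8.68, 8.54, 9.01, 8.99, 8.93 and 8.99 in wild type embryos. Wild type embryos 1 and 2 were far below the rest, and the difference of 0.21 ± 0.0745 (limma adjusted p = 0.220) was 0.09 without them. Irf1, an interferon regulatory factor that acts on class I genes, differed by 0.11 ± 0.0520. The class II genes whose promoters hold a Y box, RT1-Ha, RT1-DOa, RT1-Da, RT1-Ba, RT1-Bb and RT1-Db1, differed by 0.18, 0.20, 0.14, 0.01, 0.09 and 0.03. The other class II genes, RT1-DMa, RT1-DMb and RT1-DOb, for which no Y box was found or no promoter was on hand, differed by 0.02, -0.08 and 0.03. The class I genes with a Y box lay on both sides of 0. RT1-CE15, RT1-CE16, RT1-CE4, RT1-CE5 and RT1-M10-1 differed by 0.12, 0.13, 0.06, 0.04 and 0.13, and RT1-CE11, RT1-M3-1 and RT1-S3 by -0.06, -0.10 and -0.01. The presentation gene Calr, whose promoter also holds a Y box, differed by -0.0027. A part of the RFX genes or of the Y box in these differences was not tested.

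Of 9 proteasome genes, which cut the peptides for class I, none passed. At an unadjusted p under 0.05, 2 were higher (22.2%, against 10.2% of all probe sets) and 1 was lower (11.1%, against 4.81%). Psmb6, a catalytic subunit of the constitutive proteasome, averaged 11.46 ± 0.0609 in homozygous and 11.17 ± 0.199 in wild type eminences, without overlap between the groups, as in 1.86% of all probe sets, and with a difference of 0.28 ± 0.0736 (limma adjusted p = 0.114). Without wild type embryos 1 and 2, a pair left out after seeing the data, that difference was 0.168 (limma adjusted p = 0.0446). Psmb8, the interferon-inducible subunit LMP7, averaged 6.48 ± 0.0568 in homozygous and 6.38 ± 0.0629 in wild type eminences, a difference of 0.10 ± 0.0454 within the range of the olfactory receptor genes. Psme1, a subunit of the proteasome activator, differed by -0.08 ± 0.0378.

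Of 13 genes of folding and peptide trimming in the endoplasmic reticulum none passed. At an unadjusted p under 0.05, 1 was higher (7.69%, against 10.2% of all probe sets) and 2 were lower (15.4%, against 4.81%). Prkcsh, a subunit of the glucosidase that trims sugars before calnexin binds, differed by 0.14 ± 0.0331 (limma adjusted p = 0.0837). Sec61a1, the channel through which new proteins enter, differed by -0.08 ± 0.0231 (limma adjusted p = 0.141). Its groups did not overlap, as in 1.86% of all probe sets. The chaperone Hsp90b1 differed by -0.08 ± 0.0339. Of 11 genes of interferon receptors and signalling none passed, with 1 higher (9.09%) and 0 lower at an unadjusted p under 0.05, and Ifngr1, a chain of the interferon gamma receptor, differed by 0.13 ± 0.0449. Of 14 interferon-induced genes, 9 lay within the range of the olfactory receptor genes, none passed, 1 was higher (7.14%) and 0 were lower at an unadjusted p under 0.05, and Rsad2, an antiviral enzyme, differed by 0.16 ± 0.0728. The 8 endosomal genes, 7 class I-like genes outside RT1 and 7 receptors and partners of class I likewise held none past the test, with 0, 0 and 2 higher and none lower at an unadjusted p under 0.05. The 2 were 28.6% of the 7 receptors and partners, against 10.2% of all probe sets. The 114 genes that lie between RT1 genes on the chromosome without being members, 20 of them olfactory receptors, had a median of 0.03 and none past the threshold in limma. At an unadjusted p under 0.05, 17 of them were higher (14.9%, against 10.2% of all probe sets) and 0 were lower (against 4.81%).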

How the data were processed

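RNA of the ganglionic eminences of 12 rat embryos was measured on 1 array each, per the labels' protocols after extraction with the RNeasy Mini Kit and labelling with the Ambion WT Expression Kit. Each deposited value is a log2 intensity of 1 probe set on 1 array, a scale read from the values. Per the submitters' processing notes, the authors used RMA and Partek 6.4, and no settings are recorded there. RMA makes arrays more alike, though array medians here still ran from 7.673 to 7.755, and short probes compress large changes. Precision is limited by the number of arrays, not by depth, with a median standard error of a difference of 0.0576 over all probe sets.

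Genes were named through the platform annotation, which gave several genes for 323 probe sets and none for 13581, unnamed here. Groups were taken from the labels. All 29214 probe sets were fitted in R 4.3.3 by limma 3.58.1 (lmFit and a trended eBayes) with genotype alone in the model. The test was 2-sided and adjusted by Benjamini-Hochberg at 0.05. The code was tested on simulated data. Olfactory receptor genes are those with symbols of the Olr or Or kind. Promoters are RefSeq sequences on GRCr8, and all 44 members matched RefSeq by Entrez number. The array's own build is not given in the sources used here. Python 3.11.15 with matplotlib 3.10.9 drew the figures.

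The members and all lists were chosen with earlier results of these data known. Values of every embryo are given, by rule, for the presentation genes, the 4 RT1 genes with the highest mean, the 4 with the smallest p and the 4 with the largest residual SD, and at most 3 genes with the smallest p are named per further list. The promoter of RT1-CE16 was chosen because it holds both class I elements. Ctsb, Ctsl, Fcer1g and Mrc1 were chosen after their values were seen. Alternatives were a replicate block, a filter on probe sets below the 40th percentile of brightness, median centring, quantile normalization, cyclic loess, no intensity trend, array weights, the mean of a gene's probe sets and leaving out each embryo. Leaving out wild type embryos 1 and 2 together was chosen after seeing the data.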

Additional observations from a re-analysis of the deposited data

Results flagged for a closer look

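In 88 groups of 6 embryos, 2 for each of the 44 genes, the lowest or highest embryo was set against its nearest neighbour, and a gap above Dixon's 95% critical value, as a share of the group's range, was taken as far from the others. Chance alone gives such a gap in about 1 in 20 groups. It was found in 3. Ciita in homozygous embryo 1 was 6.227, with the next embryo at 6.475. RT1-Ha in the same embryo was 6.508, with the next at 6.646. RT1-N2 in wild type embryo 2 was 6.541, with the next at 6.721. Homozygous embryo 1 and wild type embryo 2 also had the lowest median deviation of the RT1 genes in their groups. Without homozygous embryo 1 the lowest adjusted p of a member was 0.0887 in limma, against 0.134 with all embryos.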

How the results depend on the processing

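No member passed the threshold under any of the 21 other settings, and the lowest adjusted p among them was 0.0748 in limma, with array weights. The number of members at an unadjusted p under 0.05, 5 with all arrays and probe sets, was 3 without dim probe sets, where 19 members were tested, 3 with array weights, 2 without wild type embryos 1 and 2, and 3 to 6 when each embryo was left out, with 3 without homozygous embryo 3, wild type embryo 2 or wild type embryo 5. RT1-Ha and RT1-Da were not tested without dim probe sets. The median difference of the members, 0.0315, was 0.0178 to 0.0568 with an embryo left out, 0.00813 without wild type embryos 1 and 2, and -0.00637, -0.00485 and -0.00898 under centring, quantile normalization and cyclic loess, which changed the sign of 7, 8 and 8 of the 44 differences. Centring subtracts from each array its own median, so it moves all differences by the same amount. The largest difference that changed sign under centring was 0.0367 in size. Why quantile normalization and cyclic loess changed signs was not tested. RT1-T24-4 ranged from -0.171 to -0.00203, nearest to 0 with the mean of both its probe sets, and B2m from -0.13 to 0.000769 over the planned settings. Over all probe sets the number past the threshold, 124, was 18 with the replicate block, 223 without dim probe sets, 302 after centring, 3 without an intensity trend, 414 with array weights, 582 without wild type embryos 1 and 2 and 4 to 200 with an embryo left out. The deviations of same-numbered embryos had correlations from -0.0817 to 0.256, and those of differently numbered embryos were not computed. With the replicate block 4 members had an unadjusted p under 0.05, at a median of 0.0315. Among genes outside the set, Sec61a1 (centring), Prkcsh (array weights) and Psmb6 (mean of probe sets) each passed in 1 planned setting. Dim signal limits what the differences of 17 of the 44 genes can show.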
